A study of Mus musculus with 12 samples.

Results

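The genes described here are 10 effectors that neurons switch on when they fire: Arc, Homer1, Npas4, Dusp1, Dusp6, Btg2, Ier2, Sik1, Per1 and Trib1. They were chosen by gene symbol, as 10 of 19057 genes named on the array, and 19 of its 45281 probes carry one of their symbols. Hippocampus of female C57BL/6J mice was profiled on 12 single-colour Illumina bead arrays. The EtOH group has 6 arrays from offspring labelled as prenatally exposed to alcohol, whose mothers drank 10% (v/v) ethanol by choice, starting 0.5 and ending 8.5 days post-coitum. The Control group has 6 arrays from offspring whose treatment is labelled Control. The protocol text on the drinking is the same on every sample, so the groups follow the titles and the treatment label. The mice were 12 weeks old by label and at postnatal day 87 by the series title. The question named by the title is what happens to gene expression in the brain after ethanol exposure in early pregnancy. Voluntary drinking sets no fixed dose, and litters are not told apart in the labels, so p-values measure the spread between arrays only, and some mice may share a dam. The titles carry a long number that takes 2 values, each on 6 arrays. No label says what it is. It was taken here as the bead chip, and the word chip below stands for this number: EtOH 1 to EtOH 4 with Control 1 and Control 2 are called chip 1, and EtOH 5 and EtOH 6 with Control 3 to Control 6 chip 2.

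Activity-induced genes respond to calcium entering a neuron through NMDA receptors and voltage-gated channels. Calcium activates kinases that act on transcription factors such as CREB, SRF and MEF2, which already sit near these genes, so transcripts appear within minutes and decay soon after. In the hippocampus such transcripts mark cells active during exploration and learning. Their level in a dissected tissue is therefore also known to depend on what the animal did shortly before death and on the time of day. Arc and Homer1 act at the synapse, Npas4 in the nucleus, Dusp1 and Dusp6 on MAP kinases, and Sik1, Per1, Btg2, Ier2 and Trib1 are feedback regulators of signalling, the clock or growth.

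The tissue is hippocampus by label, and markers of its cell classes were detected. Log2 intensity on the 12 arrays ran from 12.05 to 12.84 for C1ql2 of dentate granule cells and from 9.82 to 10.55 for Wfs1 of CA1 pyramidal cells. For Amigo2 of CA2 and CA3 it ran from 9.63 to 10.12. Of the listed genes on the array, 6 of 10 for dentate, 7 of 7 for CA1 and 8 of 9 for CA2 and CA3 were detected. The thalamus marker Slc17a6 ran from 9.39 to 11.73, so intensity alone does not establish the tissue. Median raw intensity per array ran from 126 to 146.9 and detected probes from 19748 to 20858. In tissue RNA, fewer active cells and less RNA per cell cannot be told apart. Some arrays stood apart in transcripts of a neighbouring tissue. Choroid plexus transcripts were high in EtOH 2, EtOH 4, Control 2 and Control 4. The mean of 6 detected plexus genes ran from 6.44 to 10.67 in EtOH and from 6.36 to 10.86 in Control. Each group holds 2 of these 4 arrays.

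Of the 10 genes, 6 were detected in this tissue and 4 were not. A probe was used where its detection p-value, which sets its intensity against the negative controls of the array, was under 0.05 on 6 or more arrays of any group. This left 12 of the 19 member probes, and 20172 probes in all. Arc, Homer1, Npas4, Dusp1, Dusp6 and Per1 have a probe detected on all 12 arrays, so each entered through both groups. Btg2, an antiproliferative partner of the mRNA deadenylation machinery, was detected on 0 of 12 arrays, with median raw intensities of 122.1 in EtOH and 117.4 in Control. Ier2, a short-lived nuclear protein gene, was detected on 0 of 12, with medians of 122.45 in EtOH and 124.2 in Control. For Sik1, a salt-inducible kinase that restrains CREB coactivators, 2 EtOH and 2 Control arrays passed, and its raw intensity ran from 126.1 to 164.6 in EtOH and from 128.2 to 155.9 in Control. The brighter of 2 Trib1 probes, for a pseudokinase that recruits a ubiquitin ligase, passed on 1 EtOH array and 0 Control arrays. No fold change is given for these 4 genes, since both groups lay at or near background. A second Npas4 probe and another Per1 probe were detected on 0 of 12 arrays as well.

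Many activity-induced genes are known to carry the cyclic AMP response element (CRE), the binding sequence of CREB, near their start. RefSeq windows of GRCm38.p6, 250 bases before to 50 after a gene's start, were at hand for 6 of the 10 genes in 8 windows. Both strands were searched for the full CRE (TGACGTCA), the short CRE (TGACG, or CGTCA on the other strand, which also lies within the full one), the E-box CACGTG read by clock factors, the TATAAA box and the CArG box of SRF. The 5 windows below are shown because they hold a CRE of either kind, with the CRE and E-box letters in capitals.
Homer1 chr13:93303507-93303806, plus strand: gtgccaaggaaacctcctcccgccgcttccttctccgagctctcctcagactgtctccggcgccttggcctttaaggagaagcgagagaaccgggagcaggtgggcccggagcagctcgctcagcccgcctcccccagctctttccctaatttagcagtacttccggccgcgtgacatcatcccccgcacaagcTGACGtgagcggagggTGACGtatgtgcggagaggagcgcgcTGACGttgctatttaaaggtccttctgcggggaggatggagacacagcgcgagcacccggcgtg
Npas4 chr19:4989922-4990221, minus strand: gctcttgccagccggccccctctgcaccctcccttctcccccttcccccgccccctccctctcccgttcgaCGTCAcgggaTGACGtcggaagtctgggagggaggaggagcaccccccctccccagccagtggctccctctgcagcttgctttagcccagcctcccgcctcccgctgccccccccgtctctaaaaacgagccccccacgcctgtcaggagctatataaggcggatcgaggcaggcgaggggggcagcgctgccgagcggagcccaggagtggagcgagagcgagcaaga
Dusp1 chr17:26508423-26508722, minus strand: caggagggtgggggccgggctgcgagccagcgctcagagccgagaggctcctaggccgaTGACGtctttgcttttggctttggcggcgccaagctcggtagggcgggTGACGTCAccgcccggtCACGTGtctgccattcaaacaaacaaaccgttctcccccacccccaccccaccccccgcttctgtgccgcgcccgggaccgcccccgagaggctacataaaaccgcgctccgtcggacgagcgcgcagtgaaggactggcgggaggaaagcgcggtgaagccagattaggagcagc
Btg2 chr1:134079106-134079405, minus strand: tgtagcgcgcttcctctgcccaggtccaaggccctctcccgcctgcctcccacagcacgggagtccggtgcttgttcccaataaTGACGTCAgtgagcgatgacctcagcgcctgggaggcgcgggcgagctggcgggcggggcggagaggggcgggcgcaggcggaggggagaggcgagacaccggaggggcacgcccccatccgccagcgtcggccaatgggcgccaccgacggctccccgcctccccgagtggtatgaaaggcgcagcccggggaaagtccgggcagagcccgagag
Per1 chr11:69098699-69098998, plus strand: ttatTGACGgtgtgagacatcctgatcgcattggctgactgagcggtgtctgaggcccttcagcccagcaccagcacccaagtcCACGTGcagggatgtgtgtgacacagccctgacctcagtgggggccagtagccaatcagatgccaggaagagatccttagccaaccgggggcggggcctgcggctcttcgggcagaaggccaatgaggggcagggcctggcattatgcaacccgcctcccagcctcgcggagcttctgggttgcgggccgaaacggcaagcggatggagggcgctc

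The Homer1 window holds 3 short CREs, at -56, -40 and -14 from the start. The Npas4 window holds 2, on opposite strands, at -179 and -169. Dusp1 has a full CRE at -143 with an E-box at -126, and a separate short CRE at -191. Btg2 has a full CRE at -166, although its transcript was not detected here. Per1 has a short CRE at -246 and an E-box at -166, and a second Per1 window, not shown, has a short CRE at -132. The Dusp6 window and a second Homer1 window matched none of the motifs searched. The full CRE stood in 2 of 8 member windows and in 1.79% of all 32851 windows, and the short CRE in 6 of 8 against 20.8% of all. The E-box stood in 2 of 8 against 7.15% of all. The CArG box and TATAAA were in 0 of 8 windows, against 1.63% and 13.6% of all windows. The GC share of the member windows ran from 44.7% to 72%, with a median of 52.7% over all windows. A match in letters is a description and not a binding site.

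Arc encodes a synaptic protein that drives AMPA receptors off the membrane and that packs its own mRNA into capsids. Its single probe (RefSeq gene on GRCm38.p6 chromosome 15, from 74669081 to 74672570) had raw intensities of 599.6 to 926.9 in EtOH with a median of 835.5, and of 524.4 to 807.5 in Control with a median of 632.35. After background correction and quantile normalization its log2 intensity was 9.01 at the lowest, 9.42 at the median and 9.70 at the highest in EtOH, against 8.94, 9.06 and 9.29 in Control. The 4 arrays EtOH 1, EtOH 2, EtOH 5 and EtOH 6 lay above every Control array, EtOH 1 only barely, while EtOH 3 and EtOH 4 lay among the Control arrays, so the groups overlapped. The mean was 9.37 ± 0.29 in EtOH and 9.08 ± 0.13 in Control (log2, SD, n = 6 each). Adjusted for the chip the difference was 0.34 on the log2 scale (95% confidence interval 0.06 to 0.61), a 1.26-fold higher level (1.04 to 1.53). An exact permutation test, two-sided, which exchanged labels only between arrays of 1 chip, gave p = 0.0356 over 225 divisions, and it can go no lower than 0.00444. Over all probes limma gave an adjusted p of 1.00, so the difference did not pass. Its size was uneven between the chips, at 0.09 within chip 1 and 0.58 within chip 2.

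In that fit, 0 of the 6 detected genes passed an adjusted p under 0.05 in either direction. The background was 0% of 20172 probes (0 higher, 0 lower). At an unadjusted p under 0.05 limma gave 2 of the 6 genes, Arc and Dusp1, both with higher values in EtOH. The same rule gave 3.48% of all probes, and 1.75% as higher (354 of 20172) and 1.73% as lower (348 of 20172). Among 10936 genes with 1 probe each, 1.53% were higher by this rule. With each array scaled to its median instead of quantile normalization, the split over all probes was 408 higher and 162 lower. All 6 genes had a difference above 0, as had 52.2% of the 10936 genes, and so had 11 of the 12 detected member probes, against 51.2% of all probes. The median difference was 0.19 over the 6 genes and 0.0043 over the 10936. In 0 of the 6 genes were the groups free of overlap. EtOH lay wholly above Control for 0.0644% of all probes and wholly below for 0.0694%. These genes were chosen with earlier results of the same arrays known, so their shared direction is a description.

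**Figure D1:**
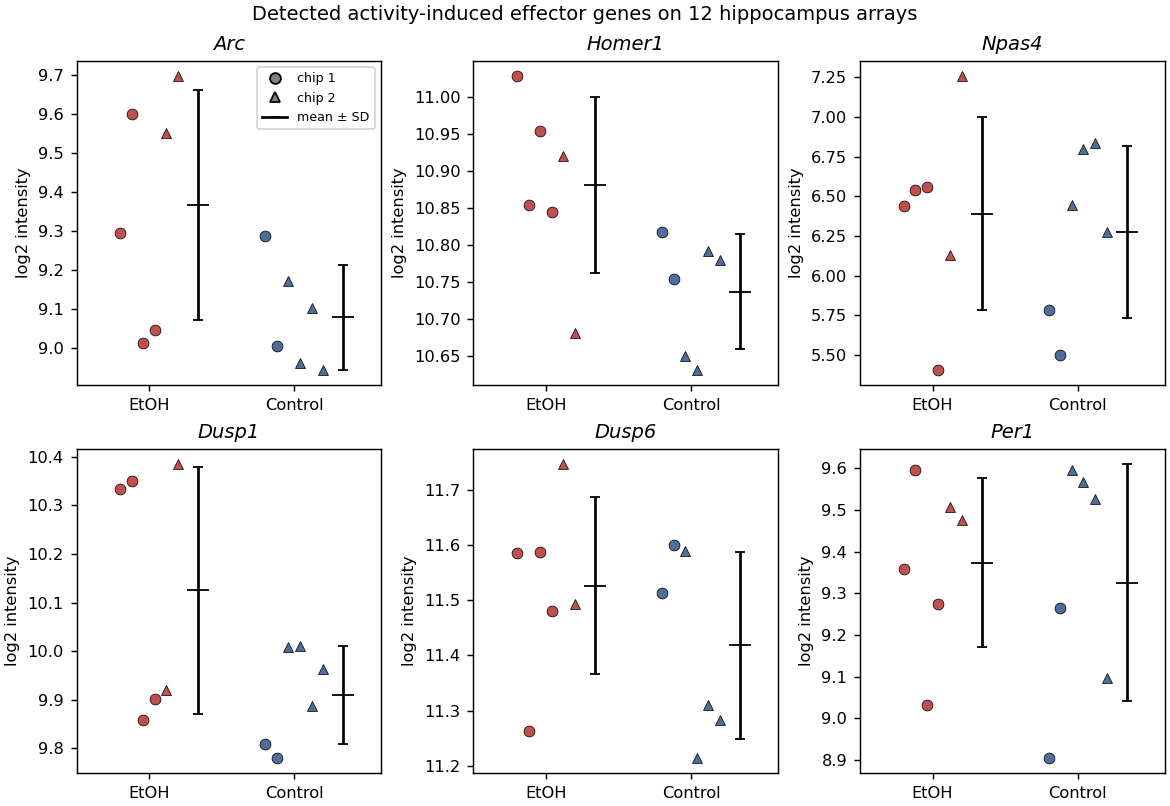
Log2 intensity of the brightest detected probe of 6 genes on each array, EtOH left and Control right, with circles for chip 1, triangles for chip 2 and bars for the group mean ± SD (n = 6 each). Arc and Dusp1 spread widely among EtOH arrays (SD 0.29 and 0.25) and little among Control arrays (0.13 and 0.10), and the groups overlap in every panel.

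Homer1 encodes a postsynaptic scaffold that ties group I metabotropic glutamate receptors to calcium stores. Its gene (GRCm38.p6 chromosome 13, from 93303757 to 93405129) makes long forms that cross-link and a short activity-induced form, Homer1a, that breaks the links. The array carries 4 probes designed on 3 RefSeq transcripts, and which form each probe reads was not determined here. Probes 1 and 2, counted by brightness, were designed on the same transcript. Probe 1 had 10.68, 10.89 and 11.03 (lowest, median and highest log2 intensity) in EtOH and 10.63, 10.77 and 10.82 in Control. Of the EtOH arrays 5 of 6 lay above every Control array, and EtOH 6 lay below 4 of them. Its difference was 0.11 (95% interval -0.03 to 0.26), 0.14 within chip 1 and 0.09 within chip 2, with an exact permutation p of 0.08. Probe 2 differed by the same 0.11 (-0.04 to 0.26), and across the 12 arrays the 2 probes had r = 0.87.

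The other Homer1 probes, each designed on another transcript, lay close to background. Probe 3 was detected on 5 EtOH and 5 Control arrays, with raw medians of 166.4 in EtOH and 160.4 in Control. Its log2 intensity ran from 5.11 to 6.37 in EtOH and from 5.09 to 6.36 in Control, and its difference was -0.20 (-0.73 to 0.33). Probe 4, detected on all 12 arrays, had raw medians of 158.9 in EtOH and 151.35 in Control and a difference of 0.05 (-0.22 to 0.31). Neither followed the bright probes, with r between -0.12 and 0.13 across the 12 arrays.

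Npas4 encodes a bHLH-PAS transcription factor that calcium induces in neurons and that controls inhibitory synapses. It had the widest spread of the 6 genes: its SD over 12 arrays was 0.55, at or above that of 99.1% of detected genes. Its detected probe (gene on chromosome 19) was dim, with raw medians of 200.9 in EtOH and 190.9 in Control. The log2 intensity was 5.41, 6.49 and 7.26 (lowest, median, highest) in EtOH and 5.50, 6.36 and 6.84 in Control. The highest and the lowest of the 12 arrays were both EtOH, EtOH 6 and EtOH 4. The difference of 0.35 (-0.19 to 0.89) was smaller than this spread (exact permutation p = 0.249). Chip 2 arrays read higher than chip 1 arrays by 0.70 (0.16 to 1.24), which limma did not call over all probes (adjusted p = 0.176). The group difference was 0.59 within chip 1 and 0.10 within chip 2. For the chip term, limma called 0.773% of all probes at an adjusted p under 0.05 and 17.3% at an unadjusted p under 0.05.

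The phosphatase genes Dusp1 and Dusp6 differed in pattern. Dusp1 encodes MKP-1, a nuclear phosphatase that switches off p38, JNK and ERK, and glucocorticoids are known to induce it too. Its probe (gene on chromosome 17, from 26505591 to 26508472) had 9.86, 10.13 and 10.39 in EtOH and 9.78, 9.93 and 10.01 in Control (lowest, median and highest log2 intensity). EtOH 1, EtOH 2 and EtOH 6 formed a group of their own between 10.33 and 10.39, and the other 9 arrays of both groups lay at 10.01 or below. The mean was 10.13 ± 0.25 in EtOH and 9.91 ± 0.10 in Control (SD, n = 6 each), with a difference of 0.25 (0.01 to 0.49) or 1.19-fold higher. It was 0.32 within chip 1 and 0.19 within chip 2. It did not pass: the exact permutation p was 0.08 and the limma adjusted p 1.00. The raw medians were 1261.45 in EtOH and 1066.6 in Control.

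Dusp6 encodes MKP-3, a cytoplasmic phosphatase specific for ERK. Its brightest probe (gene on chromosome 10) had 11.26, 11.54 and 11.75 in EtOH and 11.21, 11.41 and 11.60 in Control, with EtOH 5 the highest and Control 2 the next. The difference was 0.10 (-0.12 to 0.32, exact permutation p = 0.378). It ran in opposite directions on the chips, at -0.08 within chip 1 and 0.27 within chip 2. Its other probes differed by 0.09 (-0.15 to 0.33) and 0.17 (-0.04 to 0.39). All 6 EtOH arrays lay above the Control median of the dimmest probe, whose raw medians were 184.0 in EtOH and 164.5 in Control. The 3 Dusp6 probes had pairwise r from 0.27 to 0.43 across the 12 arrays, lower than the bright Homer1 pair.

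Per1 is a repressor of the circadian clock that CREB also induces directly and that glucocorticoids raise. Its brightest probe (gene on chromosome 11) had 9.03, 9.42 and 9.60 in EtOH and 8.90, 9.40 and 9.60 in Control, and the groups covered almost the same range. The difference was 0.14 (-0.12 to 0.40, exact permutation p = 0.32), with 0.23 within chip 1 and 0.05 within chip 2. The plain group means differed by 0.05. Chip 2, which holds 4 of the 6 Control arrays, read higher by 0.27 (0.01 to 0.53, limma adjusted p = 0.277 for the chip). The second probe, which followed the first with r = 0.84, differed by 0.08 (-0.16 to 0.31).

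**Figure D2:**
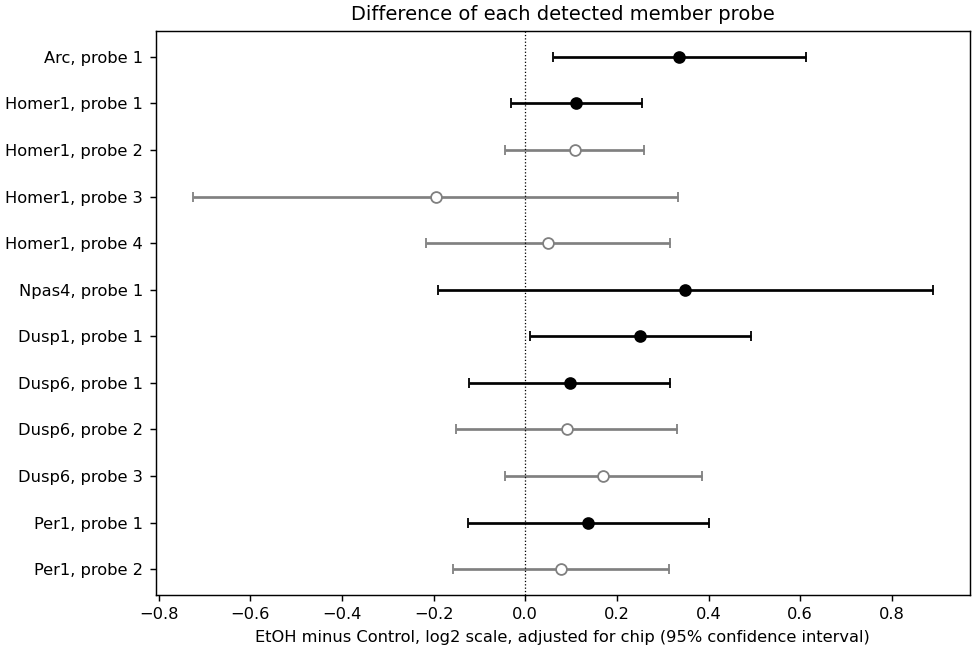
EtOH minus Control difference on the log2 scale, adjusted for chip, with 95% confidence intervals, for the 12 detected member probes. Filled points mark the brightest probe of a gene and probes are numbered by brightness. The intervals of Arc (0.06 to 0.61) and Dusp1 (0.01 to 0.49) lie above 0, and the others include 0.

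**Figure D3:**
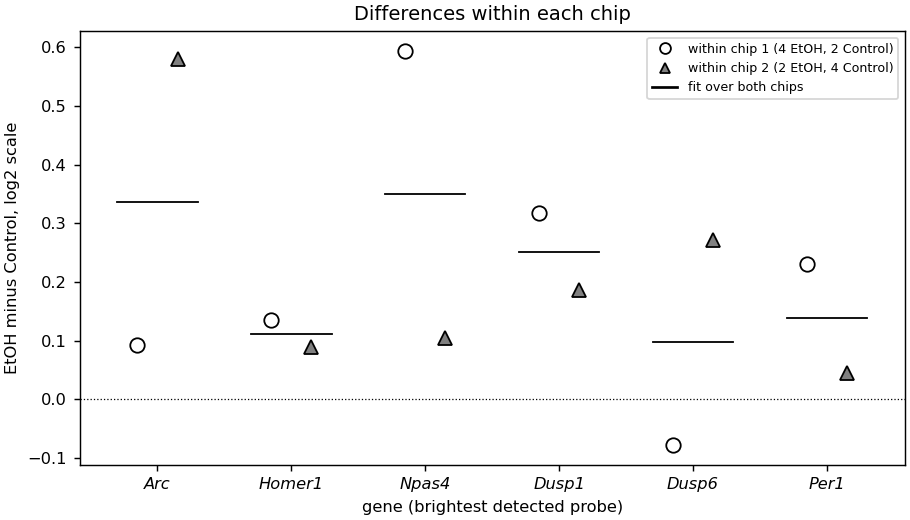
EtOH minus Control difference of group means on the log2 scale within chip 1 (open circles) and within chip 2 (grey triangles), with the fit over both as a line. Arc differs mostly within chip 2 (0.58 against 0.09), Npas4 mostly within chip 1 (0.59 against 0.10), and Dusp6 changes sign (-0.08 within chip 1 and 0.27 within chip 2).

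The 6 genes did not move as 1 block from array to array. EtOH 6 had the highest Arc, Npas4 and Dusp1 and, among EtOH arrays, the lowest Homer1. EtOH 5 was high in Arc and Dusp6 but not in Dusp1. Between pairs of genes r ran from -0.35 to 0.66 over the 12 arrays, above 0 in 10 of 15 pairs. With the group and chip means removed it ran from -0.46 (Dusp1 with Dusp6) to 0.61 (Npas4 with Dusp1), above 0 in 8 of 15.

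Arc was set against each of the other 9 genes, 4 of which were not detected. Dusp1 gave the highest Pearson's r, 0.66 (permutation p = 0.0168, adjusted over 9 relations 0.151), with a Spearman's rho of 0.48 (permutation p = 0.115, adjusted 0.528). Pearson's r was 0.78 within chip 1 and 0.61 within chip 2, where the group difference is still part of it. Among EtOH arrays it was 0.67 and among Control arrays -0.33 (n = 6 each). With the group and chip means removed it was 0.47. Without EtOH 6 and EtOH 2, the arrays farthest from the Arc median, r was 0.21, so the relation rests on those arrays. Per1 gave r = 0.37 (rho 0.32, permutation p 0.237 and 0.308) and Npas4 r = 0.34 (rho 0.21, permutation p 0.277 and 0.514). Dusp6 gave r = 0.23 (rho 0.20, permutation p 0.461 and 0.545), with -0.79 within chip 1 and 0.73 within chip 2. Homer1 gave r = 0.14 (rho 0.31, permutation p 0.654 and 0.32). For these genes too r differed in sign between EtOH and Control arrays. It was 0.89 and -0.27 for Per1, 0.59 and -0.22 for Npas4, -0.18 and 0.54 for Dusp6, and -0.51 and 0.30 for Homer1. Without the same 2 arrays r was 0.67 for Dusp6, 0.46 for Homer1, 0.17 for Per1 and -0.08 for Npas4, so the order of the genes changed as well. None of the 9 relations passed after adjustment, where the lowest value was 0.151.

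**Figure D4:**
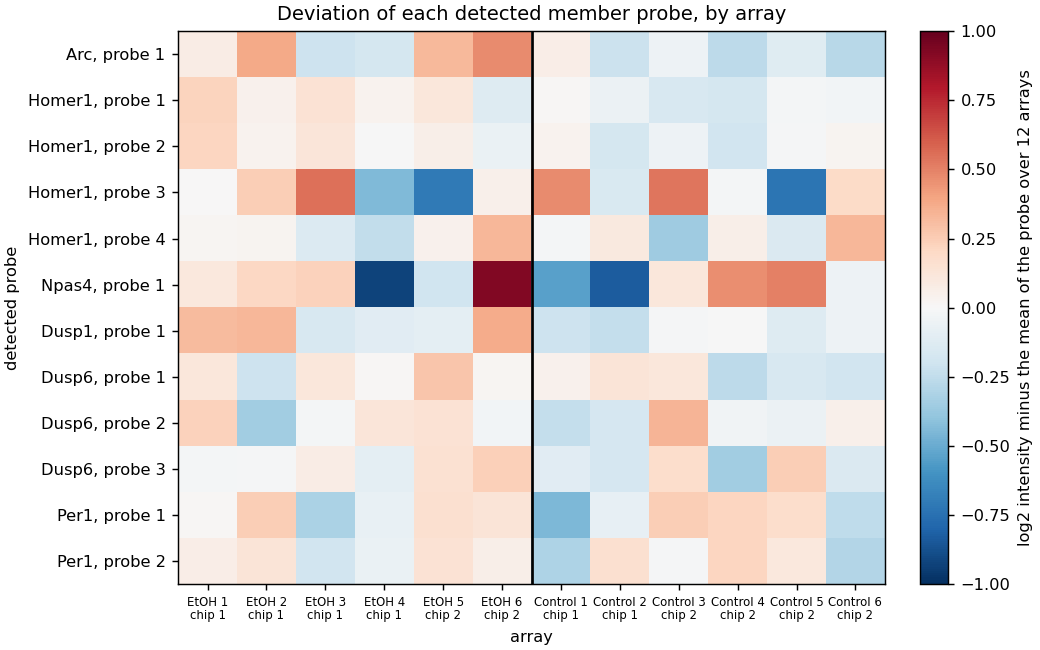
Log2 intensity of the 12 detected member probes on each array, as the deviation from the mean of the probe over 12 arrays (red higher, blue lower), EtOH arrays left of the line. Npas4 deviates most, from EtOH 4 (5.41) to EtOH 6 (7.26), and the paired bright probes of Homer1 and of Per1 share their pattern (r = 0.87 and 0.84).

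**Figure D5:**
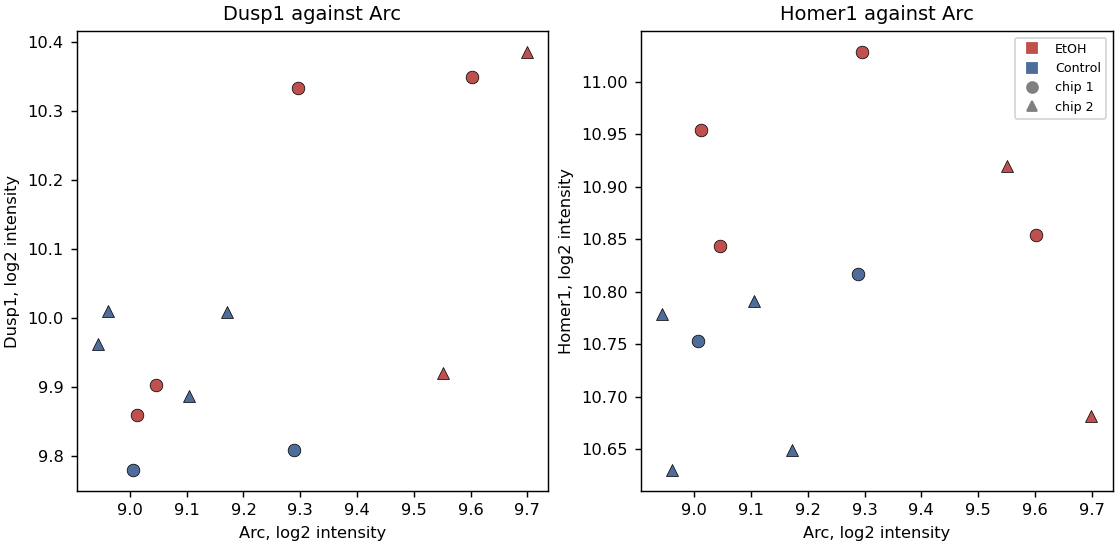
Log2 intensity of Dusp1 (left) and Homer1 (right) against Arc on the 12 arrays, with red for EtOH, blue for Control, circles for chip 1 and triangles for chip 2. Dusp1 and Arc are high together in EtOH 2 and EtOH 6 (r = 0.66 with these arrays and 0.21 without). For Homer1 r is 0.14 with them and 0.46 without.

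The genes whose pattern across the 12 arrays was most like that of Arc, by the Pearson correlation after removal of group and chip means among 10930 genes, were Psat1 (0.92), Alox12b (0.92), Ptchd4 (0.90), Katnal1 (0.89) and Gga3 (0.89). Their differences between EtOH and Control lay between -0.13 for Alox12b and 0.09 for Katnal1. For the mean of the 6 genes they were Syt3 (0.93), a synaptotagmin, Prkar1b (0.92), a regulatory subunit of protein kinase A, Cacng3 (0.91), an auxiliary AMPA receptor subunit, Dusp7 (0.91), another ERK phosphatase, and Shkbp1 (0.90). Syt3 differed by 0.20 and the others by between -0.08 and 0.06. The highest of so many correlations over 12 arrays is high by selection.

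Other genes of the same pathways were described by list, and limma passed 0 genes of any list in either direction. Of 33 detected other activity-regulated genes, 22 had a value above 0 and 11 below, with a median difference of 0.05 and 3 higher at an unadjusted p under 0.05. These were the AP-1 gene Fos at 0.50 (7.79 ± 0.42 in EtOH and 7.38 ± 0.28 in Control, log2, SD, n = 6 each) and the zinc finger factor genes Egr1 at 0.22 and Egr2 at 0.47. Of 13 genes of the CREB, SRF and MEF2 route, 12 had values above 0, with a median of 0.05. The SRF partner gene Elk4 (0.19) was the 1 gene at an unadjusted p under 0.05, followed by Creb1 (0.12) and the histone deacetylase gene Hdac4 (0.10). Of 18 genes of the ERK cascade and its inhibitors 12 were above 0, with a median of 0.02. Dusp16 (0.13), Spred2 (0.15), an inhibitor of RAF activation, and Dusp3 (-0.06) had the smallest p, and 0 had an unadjusted p under 0.05.

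Synaptic partners showed medians near 0. Of 11 detected Homer relatives and partners 9 were above 0, with a median of 0.03. Grm5, the metabotropic receptor that Homer binds, differed by 0.24 (0.02 to 0.47) and was the 1 member at an unadjusted p under 0.05. Its values were 10.45 ± 0.19 in EtOH and 10.21 ± 0.14 in Control (log2, SD, n = 6 each). The paralog Homer2 differed by 0.09 and the calcium release channel gene Ryr3 by 0.09. Of 10 partners of Arc 3 were above 0 and 7 below, with a median of -0.02. Wasf1, an actin regulator, differed by -0.09, the endophilin gene Sh3gl1 by -0.08 and Rnf216, a ubiquitin ligase that degrades Arc, by 0.10. Among 14 relatives of the other members 9 were above 0 with a median of 0.06, led by Npas2 (0.30), Sik2 (0.17) and Btg1 (-0.12). Both of these lists had 0 genes at an unadjusted p under 0.05.

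Markers of neighbouring tissue varied between arrays. Of 9 detected neocortex genes 8 were above 0, and their mean ran from 9.39 to 9.97 in EtOH and from 9.30 to 9.60 in Control. EtOH 1, EtOH 2 and EtOH 6 had the highest means, and these are the same arrays that stood apart in Dusp1. With this mean as a covariate the difference was 0.27 for Arc, 0.13 for Dusp1, 0.12 for Npas4 and 0.09 for Homer1. The covariate includes Mef2c, which also stands in the list of the CREB, SRF and MEF2 route and differed by 0.26. Neocortex genes include Cux2, which differed by 0.50, and their part in the result was not tested beyond this covariate. Some other marker lists ran with the members about as closely. Over the 12 arrays r with Arc was 0.47 for neocortex, 0.51 for thalamus, 0.47 for CA1 and -0.62 for CA2 and CA3. With the mean of the 6 genes r was 0.55, 0.51, 0.59 and -0.58 in the same order. These other lists were not used as covariates.

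Without the 4 arrays high in choroid plexus transcripts the differences were 0.31 for Arc, 0.23 for Dusp1, 0.37 for Npas4, 0.17 for Dusp6, 0.16 for Per1 and 0.10 for Homer1, all again above 0. With Ttr, the main plexus transcript, as a covariate Arc differed by 0.33 and Dusp1 by 0.26. Genes of CA2 and CA3 pyramidal cells, another neuron class of the dissection, had 8 of 8 values below 0 with a median of -0.16. Of these, 2 were lower at an unadjusted p under 0.05 in limma, among them the marker Amigo2 (-0.20). The list means were 8.92 to 9.30 in EtOH and 9.24 to 9.35 in Control. Adjusted for the chip, the choroid plexus list had a median of -0.43, with 6 of 6 values below 0. Its intervals were wide and included 0 (for Ttr -4.58 to 2.38). The plain means were higher in EtOH for Kl (8.51 against 8.38 in Control), Trpv4 (5.73 against 5.65) and Calml4 (6.10 against 6.01). They were lower in EtOH for Ttr, Clic6 and Sostdc1. The meninges list had a median of -0.48, with 4 of its 13 genes lower at an unadjusted p under 0.05. Apart from these lists and neocortex, whose median was 0.11, the marker lists had medians from -0.06 (endothelium) to 0.06 (interneurons), and their part in the members' values was not tested.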

How the data were processed

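Total RNA of 12 hippocampus samples was hybridised to Illumina bead arrays. The authors deposited 1 signal intensity per probe and array on a linear scale, not normalized per the file headers, with a detection p-value beside it. The submitters' processing notes name GenomeStudio 1.9.0. A build for the probes is not given in the sources used here. A second deposited table of intensity ranked probes as the first (lowest Spearman correlation 1.00), had medians of 135.6 to 135.7 and was taken as quantile-normalized, which served as an alternative.

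The neqc function of limma 3.58.1 (R 4.3.3) removed background, added an offset of 16, quantile-normalized and took log2. Groups were compared with limma (lmFit and eBayes) with the chip, as read from the number in the titles, as a fixed term, two-sided, with Benjamini-Hochberg adjustment over all 20172 kept probes. Differences are EtOH minus Control. By the platform annotation 34885 probes have 1 symbol, 18 have several and were left unnamed, and 10378 have none. A gene is represented by its brightest kept probe. Correlations used 100000 resamples. The members and the gene lists were chosen with earlier results of these data known. Named are all member probes, the 3 genes of smallest p in each pathway list, the 5 genes of most similar pattern and, of the first 3 genes of each marker list, those a sentence turns on.

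The fit was also tested on simulated data, with 200 changed probes in each of 10 runs. Noise was drawn independently for each probe, without variation shared between probes, so the shares recovered need not hold for these arrays. At an adjusted p under 0.05 it recovered 0.1% of changes of 0.25 (log2), 60.4% of 0.5 and 96.4% of 1. Changes of 0.25 were thus almost never called in this simulation. The number of arrays limits the precision, and the median half-width of the 95% interval was 0.20. Correlation between arrays ran from 0.983 to 0.994. Alternatives changed the background correction, normalization, filter, chip term, variance model, array weights, replicate block, tissue covariates and arrays used.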

Additional observations from a re-analysis of the deposited data

How the results depend on the processing

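No probe passed an adjusted p under 0.05 in limma under any of the 28 alternatives run (lowest adjusted p 0.0709). At an unadjusted p under 0.05 there were 702 probes as reported, 458 with detection on all arrays at p under 0.01 (fewer probes tested) and 1913 with no filter (more probes tested), and 604 to 919 with 1 array left out. The 6 detected genes stayed above 0 under every alternative that measured them, except Dusp6, which was -0.078 within chip 1. With 1 array left out the lowest values were 0.0057 for Dusp6 and 0.073 for Homer1, both without EtOH 5, and 0.047 for Per1, without Control 1. With the stricter filter 5 of 5 remaining genes were above 0. With no filter 8 of 10 were, but the added Btg2, Ier2, Sik1 and Trib1 lay at or near background, so their signs cannot show a direction. The median over the genes ran from 0.10 (no filter) to 0.34 (replicate block). Arc ran from 0.09 (chip 1 alone) to 0.58 (chip 2 alone), and from 0.25 without EtOH 6 to 0.45 without Control 1. It had an unadjusted p under 0.05 under 23 of 28 alternatives and Dusp1 under 14. Dusp1 ran from 0.13 (neocortex covariate) to 0.39 (replicate block). Npas4 ran from 0.10 (chip 2 alone) to 0.62 (without EtOH 5), and its lowest value with 1 array left out was 0.20, without EtOH 6. The mean of the Homer1 probes differed by 0.018. Of the secondary probes, Homer1 probe 4 turned to -0.12 within chip 1 and -0.013 with the neocortex covariate, and ran from -0.047 to 0.11 with 1 array left out. Dusp6 probe 2 turned to -0.017 within chip 2, and Per1 probe 2 ran from -0.0047 to 0.17 with 1 array left out. The cause was not tested.

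Replicate numbers do not mark pairs by the labels. With only group means removed, deviations of same-numbered arrays correlated by 0.08 to 0.27, over 0.1 in 5 of 6 pairs. By these deviations 4 of 12 arrays correlated best with their own number. Same-numbered arrays mostly share a chip, and with the chip means removed too the correlations ran from -0.13 to 0.24. With the replicate block the fit called 0 probes, and 917 had an unadjusted p under 0.05. The differences were 0.45 for Arc, 0.39 for Dusp1 and 0.29 for Per1 (0.05 to 0.52), with a limma adjusted p of 1.00 each. EtOH 3 and EtOH 4 lie on chip 1, and Control 3 and Control 4 on chip 2. With the chip term these arrays inform the chip and not the group difference, which rests on the arrays numbered 1, 2, 5 and 6. In this fit Per1 joined Arc and Dusp1 at an unadjusted p under 0.05 (limma, 0.022). Dim probes (Npas4, Homer1 probes 3 and 4) limit what can be read from them.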

Other observations

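Both Per1 and Dusp1 answer to stress hormones and Per1 belongs to the clock, so these genes are given here as values. Of 13 glucocorticoid response genes 4 were above 0 and 9 below, with a median difference of -0.0095, and the smallest p belonged to Zbtb16 (0.13), the metallothionein gene Mt1 (-0.07) and Fkbp5, a chaperone of the glucocorticoid receptor (-0.10). Of 13 clock genes other than Per1, 5 were above 0 and 8 below, with a median of -0.02. Among them Arntl, which encodes the activator BMAL1, differed by 0.21 (8.26 ± 0.25 in EtOH and 8.11 ± 0.16 in Control, log2, SD, n = 6 each), Npas2 by 0.30 and Tef by -0.10. In limma 0 genes of either list passed, and 0 had an unadjusted p under 0.05. The hour at which tissue was taken is not given in the labels used here.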
